A study of Mus musculus with 8 samples.

Results

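Endothelial cells line the blood vessels of the kidney, and 604 of them were found among the 6495 single cells that could be assigned to 1 of 4 mice. They were chosen by their content of 5 endothelial transcripts. A cell was kept when the counts of unique molecular identifiers (UMIs, which mark single captured RNA molecules) of *Pecam1*, *Cdh5*, *Kdr*, *Flt1* and *Emcn* summed to at least 6. The cells came from kidneys of 4 male embryos, E17.5 by the labels (the study's text gives a later day), 2 of them *Trim28*Δ/Δ (mice 1 and 2, named ko in the list of tags) and 2 *Trim28*f/f (mice 3 and 4, named wt). In the *Trim28*Δ/Δ animals a *Six2* promoter-driven EGFP-cre transgene (Six2-cre) deletes a floxed segment of *Trim28* in nephron progenitors and hence in the epithelium that they form. All 4 animals carry floxed alleles, and the sources used here do not say whether the controls carried Six2-cre. The endothelium is not a descendant of the *Six2*-expressing progenitors, so the comparison asks how vessel cells differ in a kidney whose nephrons lack *Trim28*, which encodes a co-repressor recruited to DNA by KRAB zinc finger proteins.

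The renal vasculature is highly specialized. Afferent arterioles lead to the glomerular capillaries, which are fenestrated and grow towards podocytes that secrete VEGF-A, the ligand of the receptors KDR and FLT1. Efferent arterioles continue into the peritubular capillaries and the descending and ascending vasa recta, which supply the cortex and the medulla. During development, angiopoietins and their receptor TIE2 (*Tek*), Notch ligands and transcription factors of the SOXF and ETS families shape these vessels.

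Cells of the 4 mice were pooled after each suspension had been labelled with a cell multiplexing oligonucleotide (CMO), a membrane-anchored DNA tag. The genotype of every endothelial cell rests on these tags, so their barcodes are shown, 5′ to 3′ and as listed by the authors, with no base singled out.
CMO305, mouse 1, *Trim28*Δ/Δ: cgcgatatggtcgga
CMO308, mouse 2, *Trim28*Δ/Δ: cggattccacatcat
CMO306, mouse 3, *Trim28*f/f: aagatgaggtctgtg
CMO307, mouse 4, *Trim28*f/f: aagctcgttggaaga
Each barcode has 15 bases, and any pair of them differs at 11 or more positions. The median count of the leading tag was between 4008 (mouse 3) and 8520 (mouse 2) per endothelial cell. Among barcodes that passed the quality filters, 2161 had at least 6 endothelial UMIs, of which 1283 had no single leading tag and were set aside as possible doublets or unlabelled cells. Of all 19273 barcodes that passed, 10098 had a single leading tag, so endothelial barcodes lacked one more often than barcodes in general.

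The endothelial cells had a median of 13357, 12351, 14612.5 and 12308 UMIs in mice 1 to 4, and 1630418 to 3558387 UMIs were summed per mouse. Mouse 3 stood apart from the other 3 mice, including the other control. Of its 196 endothelial cells, 93 fell into 2 clusters that held only 7 cells of the other mice together, and the genotype results are therefore also given without it. RNA of other cell types was present as well. At least 6 UMIs of epithelial markers were found in 177 of the 604 cells, and of proximal tubule markers in 71. Nearly all cells (600) held as many UMIs of erythroid genes, which also reached 32209 UMIs per 1000000 in barcodes with 10 to 100 UMIs, that is in free RNA. All mice shared this 1 library and its free RNA.

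Genes that were not used to choose the cells were also among those with the highest levels relative to other cells. Of the 20 genes with the highest ratio between the endothelial cells and all other assigned cells, 15 were outside the rule, and the ratio was at least 129 for all 20 in the pooled cells and at least 84.9 in every mouse. Levels are counts per 1000000 UMIs (CPM). *Clec1a*, a C-type lectin, reached 169 CPM against 0.622 CPM in other cells. *Gpihbp1*, which carries lipoprotein lipase across capillary endothelium, had 720 against 3.39 CPM. *Fabp4*, a fatty acid-binding protein of capillaries, was by far the most abundant of the 20 with 6130 against 36.1 CPM, and the transcription factor genes *Sox18* and *Erg* were among them too. These ratios follow from the choice of cells and are a description. *Prox1* and *Lyve1*, which define lymphatic endothelium, stayed below 20 CPM in every mouse, and no lymphatic cluster was found.

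**Figure D1:**
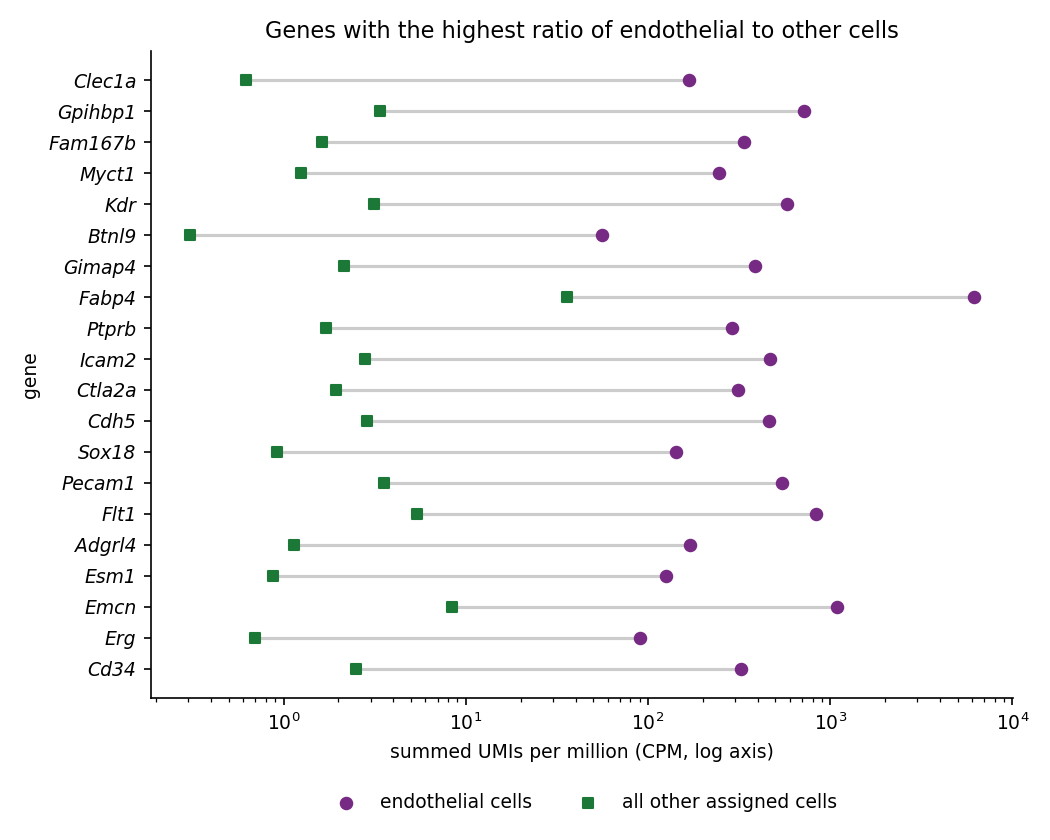
Genes with the highest ratio of endothelial to other cells. Points show CPM (log axis) in the 604 endothelial cells and squares those in all other assigned cells, and the squares lie at least 129-fold lower for each of the 20 genes.

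The threshold cut through a sparse range. Of all assigned cells, 3854 had no UMI of the 5 markers and 559 had 16 or more, whereas 19 cells just outside had 5 and 10 cells just inside had 6. Over the 15 other core endothelial genes (among them *Tie1*, *Tek* and *Cldn5*), the 64 cells with 4 or 5 marker UMIs had a median of 4 UMIs, the 15 cells with 6 or 7 had 5, and the cells with 16 or more had 66. Cells at the threshold thus had few endothelial transcripts overall.

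Endothelial cells were a larger share of the recovered cells from either *Trim28*Δ/Δ mouse than from either control. The share was 15.6% in mouse 1 (182 of 1168 cells, exact 95% binomial interval 13.5 to 17.8%) and 10.3% in mouse 2 (133 of 1289, 8.71 to 12.1%). In the controls it was 7.87% in mouse 3 (196 of 2490, 6.84 to 9.0%) and 6.01% in mouse 4 (93 of 1548, 4.88 to 7.31%). The genotypes did not overlap, with 13.0% ± 3.72 against 6.94% ± 1.32 (SD, n = 2 each) and a difference of 6.01 percentage points. The exact permutation test over mice (two-sided) gave p = 0.333, which is the smallest p that 2 against 2 mice allow. Leaving out mouse 3 gave a difference of 6.94 points and leaving out mouse 1 one of 3.38 points. It was 4.52 points without cells that held markers of other types, and 12.1 points when the leading tag had to hold at least 90% of the tag counts, which left 2712 assigned cells. A share is relative to the other cells recovered, so more endothelial cells and fewer cells of other types cannot be told apart. With the 90% limit on the leading tag, the share was 23.5% and 15.8% in mice 1 and 2 against 7.28% and 7.70% in mice 3 and 4. Whether cells without a single leading tag were lost unevenly between mice was not tested.

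**Figure D2:**
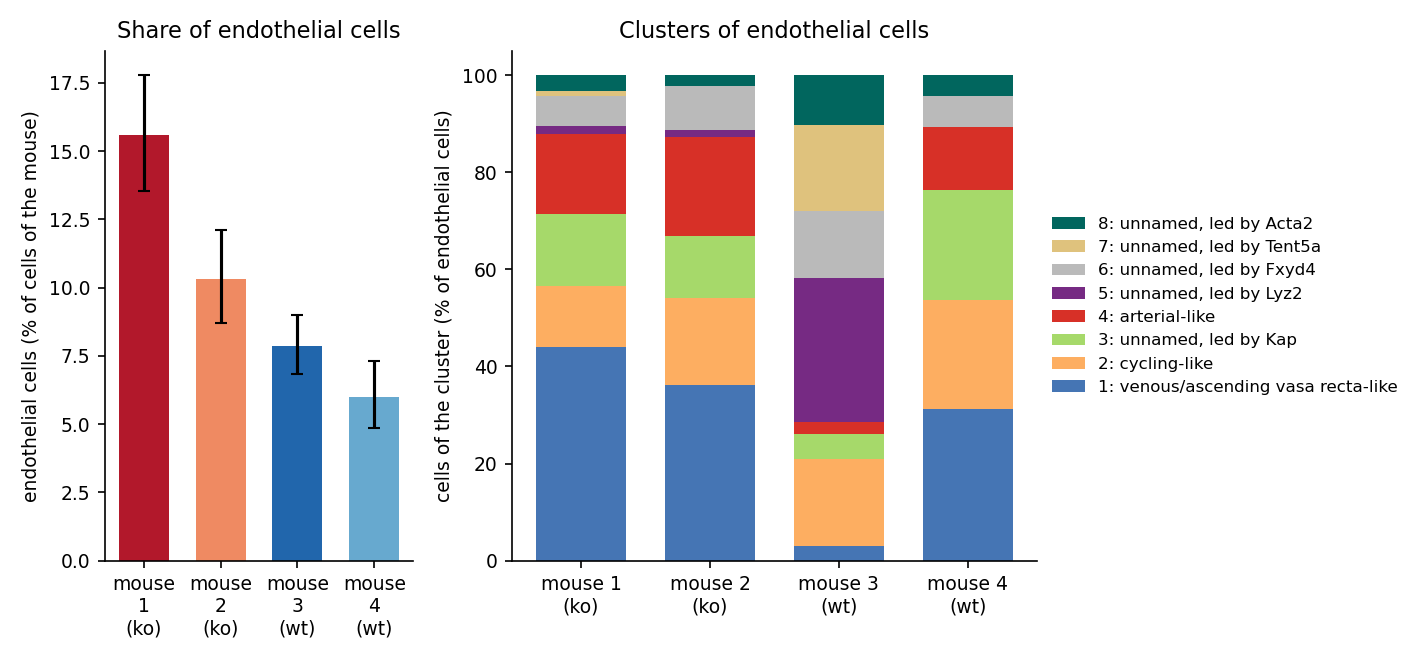
Share and clusters of endothelial cells by mouse. Left, endothelial cells as a percentage of the assigned cells of each mouse with exact 95% binomial intervals. Right, the 8 clusters as a percentage of the endothelial cells of each mouse, in which clusters 5 and 7 appear almost only in mouse 3.

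Clustering split the endothelial cells into 8 groups, 3 of which could be named from marker lists. The largest, with 163 cells, was venous and ascending vasa recta-like. It was led by *Igf1*, *Aplnr* (the apelin receptor) and *Flrt2* and had 676 CPM of *Plvap*, which forms the diaphragms of fenestrae. However, *Vwf*, a venous marker of the same list, was not detected there. Of the same list, *Plvap* (749 CPM) and *Gas6* (71.0 against 52.8 CPM) were higher in cluster 5. *Nr2f2* (185 CPM) was higher in clusters 5 (224 CPM) and 8 (371 CPM). *Aplnr* and *Plvap* are also on the peritubular capillary list, whose other markers *Igfbp3* and *Npr3* were not highest in the venous-like group. The name thus separates these vessel types only weakly. An arterial-like group of 74 cells was led by *Cxcl12* (2212 CPM), *Eln* (795 CPM), which encodes elastin, and *Fbln5* (735 CPM), which encodes a protein of elastic fibres. It also held the connexin gene *Gja4* (646 CPM) and *Sox17* (968 CPM). Of the same arterial list, *Gja5* (127 CPM), *Hey1* (122 CPM) and *Dll4* (63.6 CPM) were higher in cluster 3, at 163.5, 136 and 135 CPM. The descending vasa recta markers *Aqp1* (396 CPM) and *Scin* (53.2 CPM) were also highest in the arterial-like group, whereas *Slc14a1* was not. A cycling-like group of 103 cells was led by histone and mitosis genes with *Top2a* at 912 CPM. As these genes defined the clusters, they are descriptions only.

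The other 5 clusters stayed unnamed. Markers of other cell types led 4 of them, and none of the 10 leading genes of cluster 7 was a marker of the glomerular list that matched it best. Cluster 3 (75 cells) was led by proximal tubule genes such as *Kap*, yet it had the highest level of *Ehd3*, a gene of glomerular endothelium, at 1042 CPM. Cluster 5 (63 cells, 58 of them from mouse 3) combined macrophage genes (*Lyz2*, *C1qb*) and hemoglobin with 2185 CPM of *Flt1*. Cluster 6 (56 cells) was led by distal and collecting duct genes (*Fxyd4*, *Aqp2*) and had the highest median of UMIs, 26010.5 per cell. Cluster 7 (37 cells, 35 of them from mouse 3) was led by *Tent5a* and *Hilpda* and had 729 CPM of *Ehd3*. Cluster 8 (33 cells) was led by smooth muscle, renin and collagen genes and had a median of only 12 marker UMIs. Clusters 3, 5, 6 and 8, with 227 cells in all, held markers of other types. Of these cells, 115 came from mouse 3. They were 58.7% of its endothelial cells, against 25.8%, 25.6% and 33.3% in mice 1, 2 and 4. This label rests on levels per cluster, so it need not hold for each cell. At least 6 UMIs of immune markers were found in only 12 endothelial cells, 4 of them from mouse 3. Leaving out single cells with markers of other types kept 123, 96, 110 and 70 endothelial cells in mice 1 to 4. Leaving out the clusters kept 135, 99, 81 and 62. The part of doublets in the 227 cells was not tested.

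Venous-like and arterial-like cells took larger shares of the endothelium of mice 1 and 2 than of mice 3 and 4. Venous-like cells made up 44.0% and 36.1% in mice 1 and 2 against 3.06% and 31.2% in mice 3 and 4. Mouse 3 accounted for most of this difference, which was 22.9 percentage points with and 8.84 points without it. However, the unnamed cluster 5 also had the venous list as its best endothelial match. Its mean log2 ratio to the other clusters was 0.580, against 0.597 for the venous-like cluster. Cluster 5 held 29.6% of the cells of mouse 3 and at most 1.65% of those of any other mouse. The venous-like share of mouse 3 thus leaves out many cells of a cluster that matched the same list. The arterial-like share was 16.5% and 20.3% against 2.55% and 12.9%, and differed by 10.7 points, or by 5.49 points without mouse 3. The exact binomial interval of mouse 4 overlapped those of both *Trim28*Δ/Δ mice in either case. It was 6.85 to 21.5% beside 11.4 to 22.7% in mouse 1 for the arterial-like cells, and 22.0 to 41.6% beside 36.6 to 51.5% for the venous-like cells. Cycling-like cells accounted for 12.6% and 18.05% against 17.9% and 22.6%, and here the genotypes overlapped. They did not overlap at a resolution of 0.3 or 1.0 or with cell cycle genes left out of the clustering. As a share of all assigned cells, cycling-like endothelial cells were higher in mice 1 and 2 (1.97% and 1.86%) than in mice 3 and 4 (1.41% and 1.36%). The exact permutation p was 0.333 for the venous-like and the arterial-like share and 0.667 for the cycling-like share. That 93 of the 196 cells of mouse 3 lay in clusters 5 and 7 leaves fewer of its cells for the other clusters. Even so, mouse 3 had the highest share of the 4 mice in clusters 6 (13.8%) and 8 (10.2%). How much of its low venous-like and arterial-like shares follows from clusters 5 and 7 was not tested.

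Glomerular endothelium was not named in this clustering, but clusters 3 and 7 both had the glomerular list as their best endothelial match. Together they held 15.9%, 12.8%, 23.0% and 22.6% of the endothelial cells of mice 1 to 4, so that both *Trim28*Δ/Δ mice lay below both controls. This sum was formed after the clusters had been seen. At a resolution of 0.3 a glomerular-like cluster of 112 cells was named, with 15.9% and 13.5% in mice 1 and 2 against 19.9% and 27.96% in mice 3 and 4. At a resolution of 1.0 the genotypes overlapped, with 14.8% and 13.5% against 2.04% and 27.96%. As a share of all assigned cells the order seen at 0.3 was lost too, with 2.48% and 1.40% against 1.57% and 1.68%. *Ehd3* itself, summed over all endothelial cells, overlapped between genotypes with 267, 385, 186 and 434 CPM in mice 1 to 4, scaled as described in the next paragraph.

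Hypoxia and interferon genes set mouse 3 apart from the other mice of both genotypes. From here on, levels of single genes over all endothelial cells are CPM after scaling by the trimmed mean of M values (TMM), whereas list sums and levels within clusters are unscaled CPM. All 14 genes of a hypoxia and glycolysis list were highest in mouse 3, whereas 33.2% of all 11630 tested genes were. *Bnip3*, a mitophagy gene induced by low oxygen, had 57.7 and 48.6 CPM in the *Trim28*Δ/Δ mice, 303 in mouse 3 and 50.7 in mouse 4. *Adm*, which encodes the vasodilator adrenomedullin, had 18.4 and 16.1 CPM against 119 and 20.5. *Slc2a1*, the glucose transporter GLUT1, had 33.5 and 35.4 CPM against 163 and 37.4. In each case mouse 4 lay close to the *Trim28*Δ/Δ mice. The list summed to 6458 CPM in mouse 3 and to 3081 to 3191 CPM in the others, and it was also highest in mouse 3 in all other cells (8532 against 3957 to 4403 CPM).

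All 9 genes of an interferon and antigen presentation list were lowest in mouse 3, against 32.7% of all tested genes. *Isg15*, a ubiquitin-like protein induced by interferon, had 350 and 426 CPM in mice 1 and 2, 54.4 in mouse 3 and 255 in mouse 4. Over all 9 genes the sum was 2241 and 2732 CPM in mice 1 and 2 against 1254 and 2277. Between genotypes, 6 of the 9 genes were higher in both *Trim28*Δ/Δ mice without overlap (beside 17.5% of all genes), and their median log2 fold change was 0.54, or 0.15 without mouse 3. In all other cells mouse 3 was not the lowest (286, 281, 247 and 229 CPM in mice 1 to 4). The low level of mouse 3 was found within a single cluster too. Among cycling-like cells, of which each mouse had 21 to 35, *Isg15* reached 423 and 445 CPM in mice 1 and 2, 59.3 in mouse 3 and 185 in mouse 4, and the hypoxia list summed to 2792, 2799, 6098 and 2554 CPM. What set mouse 3 apart was not tested.

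**Figure D3:**
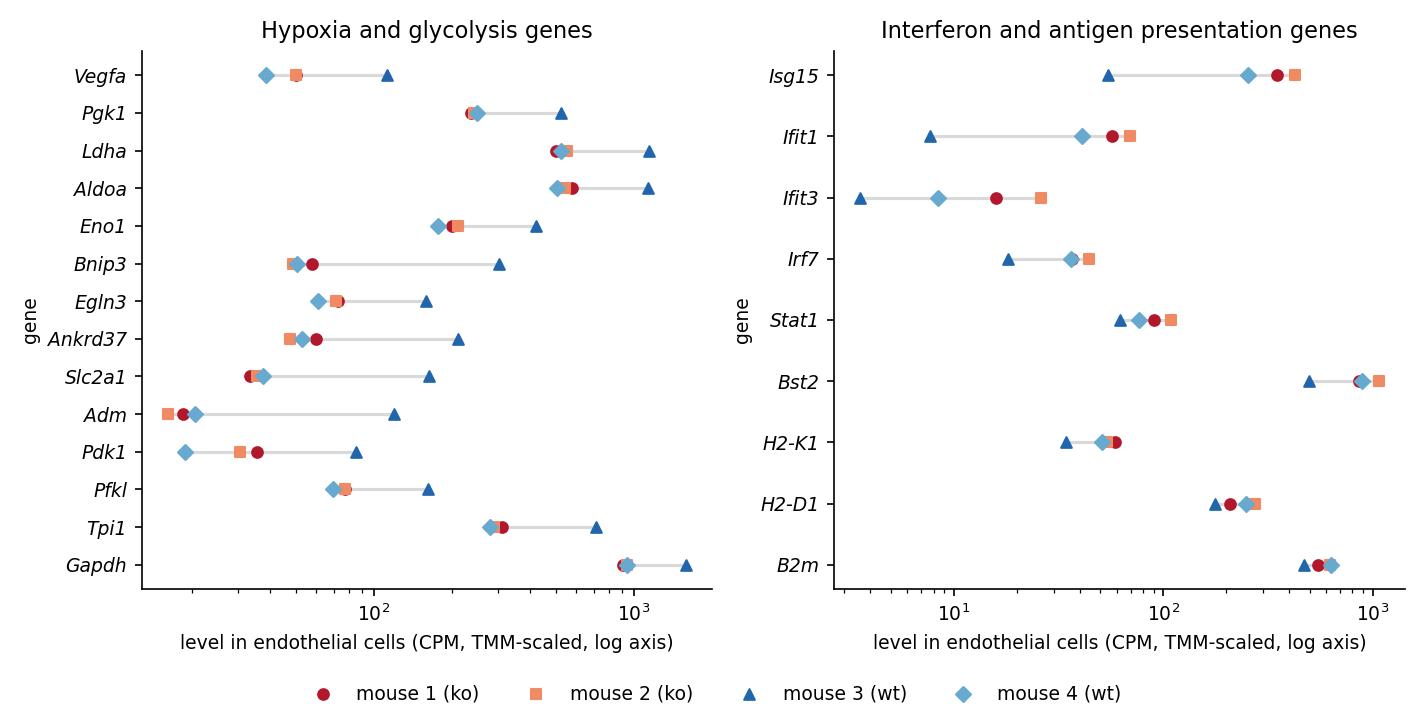
Levels of hypoxia and interferon genes in endothelial cells by mouse. Each point is the TMM-scaled CPM of a gene (log axis) in 1 mouse, and mouse 3 lies highest for all 14 hypoxia and glycolysis genes and lowest for all 9 interferon and antigen presentation genes.

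No gene was called between genotypes when UMIs were summed per mouse. Of 11630 tested genes, 0 (0%) passed an adjusted p of 0.05 in edgeR's quasi-likelihood test. At an unadjusted p below 0.05 there were 721 genes (6.2%), of which 291 (2.5%) were higher and 430 (3.7%) lower in *Trim28*Δ/Δ cells, and DESeq2 called 17 genes (0.146%), 3 higher and 14 lower. Of the genes described next, *Fbln5*, *Tpm2*, *Col3a1*, *Myl9*, *Col1a1*, *Col1a2* and *Sox9* were among these 17. The genotypes did not overlap for 2038 genes (17.5%) in the higher and 2072 genes (17.8%) in the lower direction.

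Among the 10 genes of smallest p that were higher in both *Trim28*Δ/Δ mice were the fibulin genes *Fbln5* and *Fbln2*. *Fbln5* had 123 and 98.9 CPM in mice 1 and 2 against 41.3 and 41.0 in mice 3 and 4, a log2 fold change of 1.43 ± 0.18 (SE, edgeR adjusted p = 0.413). *Fbln2*, a further fibulin, had 74.6 and 70.5 against 35.7 and 34.4 CPM (log2 1.05 ± 0.17). Both genes were mainly found in the arterial-like cluster, with 735 and 445 CPM. Within it, *Fbln5* had 766 and 702 CPM in mice 1 and 2, 1338 in the 5 cells of mouse 3 and 452 in the 12 cells of mouse 4. *Fbln2* overlapped there, with 453 and 450 CPM against 302 and 461. The genes *Klhl4* and *Irx5*, the latter encoding an Iroquois homeobox factor, were leading genes of the venous-like cluster and reached log2 0.99 ± 0.18 and 1.36 ± 0.29.

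*Wdfy1*, an adaptor of endosomal Toll-like receptor signalling, did not follow a single cluster. It had 51.6 and 47.0 CPM against 21.4 and 18.7 (log2 1.28 ± 0.20, edgeR adjusted p = 0.424). Among venous-like cells it had 73.1 and 66.2 against 27.97 and 31.9 CPM, and among cycling-like cells 48.6 and 39.8 against 13.4 and 17.1 CPM. Both *Trim28*Δ/Δ mice were thus higher in either cluster. In GRCm38, *Wdfy1* spans chr1:79702262-79776143 and *Fbln5* chr12:101746565-101819055, both on the minus strand.

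The 10 genes of smallest p that were lower in both *Trim28*Δ/Δ mice included smooth muscle and collagen genes. *Tpm2*, a tropomyosin of smooth muscle, had 27.6 and 34.6 CPM in mice 1 and 2 against 89.2 and 121 in mice 3 and 4 (log2 -1.75 ± 0.22, edgeR adjusted p = 0.413). *Col3a1*, a fibrillar collagen, had 39.3 and 32.2 against 134 and 86.3 CPM (log2 -1.63 ± 0.25). These genes belonged to cluster 8, which held 3.30% and 2.26% of the cells of mice 1 and 2 against 10.2% and 4.30% of those of mice 3 and 4. Without the 4 clusters that held markers of other types, the log2 fold change was -0.03 for *Tpm2*, 0.03 for *Myl9*, 0.52 for *Col3a1* and -0.64 for *Col1a2*, which still did not overlap between genotypes. *Sox9*, a transcription factor gene, had 10.7 and 13.6 against 46.4 and 38.0 CPM, but without these clusters mouse 4 (10.1 CPM) lay between both *Trim28*Δ/Δ mice (8.42 and 10.9 CPM) and only mouse 3 was high (51.2 CPM). All 4 tested stroma markers and 5 of 6 proximal tubule markers were lower without overlap, beside 17.8% of all tested genes. The stroma list summed to 113 to 120 CPM in *Trim28*Δ/Δ and 270 to 409 CPM in control mice, and the proximal tubule list to 291 to 325 against 355 to 662 CPM. In all other cells the proximal tubule list went the other way (1625 and 1363 against 776 and 1014 CPM). The stroma list overlapped there (533 and 384 against 413 and 243 CPM).

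**Figure D4:**
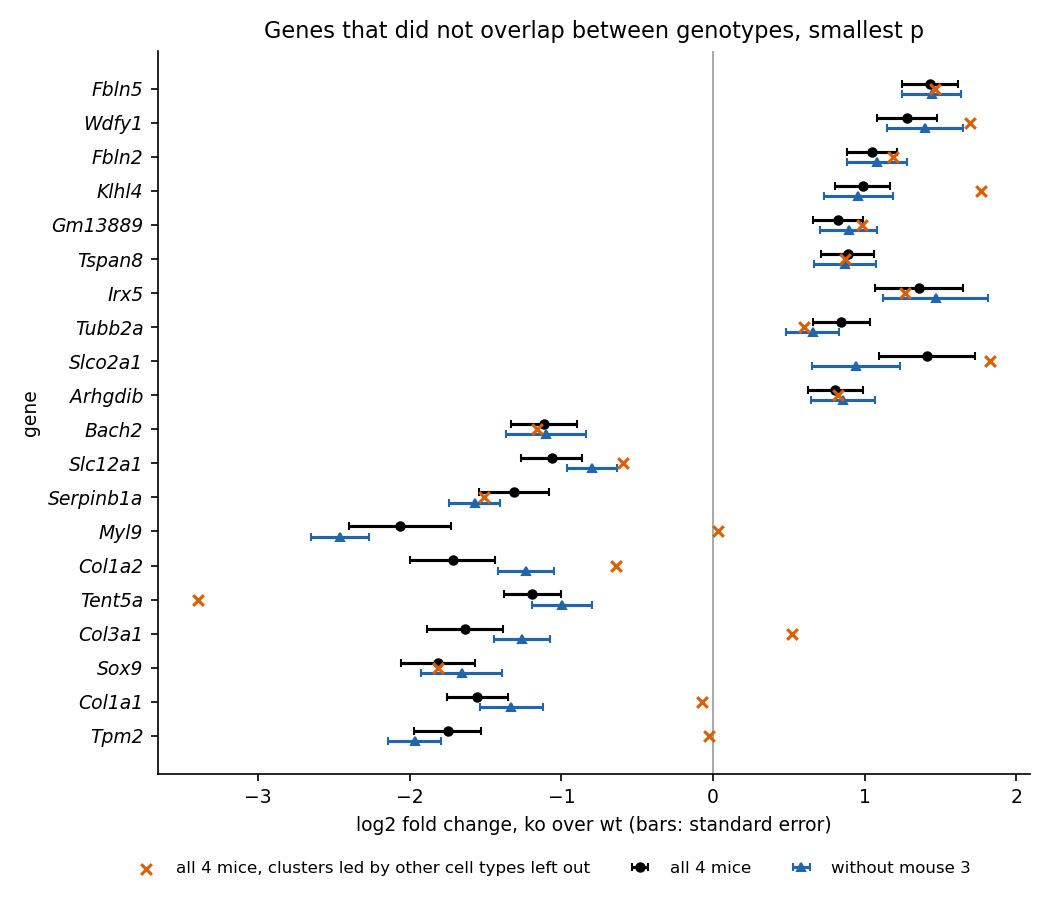
Log2 fold change of *Trim28*Δ/Δ over *Trim28*f/f endothelial cells for the 10 higher and 10 lower genes with the smallest p. Circles show all 4 mice and triangles the fit without mouse 3, each with its standard error, and crosses the fit without the 4 clusters that held markers of other types, in which *Tpm2*, *Myl9*, *Col1a1* and *Col3a1* move to values between -0.07 and 0.52 and *Col1a2* to -0.64.

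Several genes of endothelial identity were higher in both *Trim28*Δ/Δ mice, none of them past the adjusted test, but the markers of the rule were not. Of these 5 markers, which chose the cells, 3 (*Kdr*, *Flt1* and *Emcn*) were lower and 0 higher without overlap. The shares of all genes were 17.8% and 17.5%. The median of the 5 markers was -0.20, or -0.15 without mouse 3. Over the 15 core endothelial genes the median log2 fold change was 0.11, beside -0.01 over all tested genes, with 7 higher (beside 17.5% of all genes) and 0 lower (beside 17.8%) without overlap. The median was 0.10 without mouse 3 and -0.01 without the 4 clusters that held markers of other types. *Cldn5*, the tight junction claudin of endothelium, had 416 CPM in both *Trim28*Δ/Δ mice against 148 and 299. *Tek*, the angiopoietin receptor, had 133 and 152 against 111 and 88.7 CPM. Of 14 endothelial transcription factor genes (median 0.21, or 0.02 without mouse 3), *Sox17* had 290 and 238 against 165 and 183 CPM, whereas *Erg* (94.5 and 92.3 against 84.4 and 97.7 CPM) and *Fli1* overlapped. *Sox17* is also an arterial gene, and the 8 arterial genes had a median of 0.63, which dropped to 0.10 without mouse 3. Among venous-like cells *Sox17* had 176 and 177 against 97.9 and 121 CPM. It overlapped among arterial-like cells (1138 and 794 against 626 and 877 CPM) and cycling-like cells (117 and 211 against 187 and 154 CPM). *Cldn5* was highest in the arterial-like and venous-like clusters (757 and 497 CPM), whose shares were larger in mice 1 and 2.

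Of 9 genes of the vascular basement membrane (median -0.35), 6 were lower and 1 (*Sparc*) higher without overlap, beside 17.8% and 17.5% of all tested genes. *Col4a1*, a collagen IV chain, had 1111 and 1090 CPM against 1350 and 1464 (log2 -0.35 ± 0.14), and its partner chain *Col4a2* had 602 and 609 against 733 and 823 CPM (log2 -0.36 ± 0.14). *Nid2*, which links laminin to collagen IV, had 122 and 119 against 195 and 167 CPM. None of these passed the adjusted test. Without mouse 3 the list median was -0.26.

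Signalling genes were mixed. The 11 genes of VEGF and angiopoietin signalling had a median of -0.42, which turned to 0.15 without mouse 3, and the 10 tip cell genes had -0.50 and -0.22. Without the 4 clusters that held markers of other types these medians were -0.13 and -1.17, each over 8 genes. *Esm1*, a tip cell gene induced by VEGF, had 102 and 101 against 166 and 135 CPM. The 13 Notch pathway genes had a median of -0.16, or -0.07 without mouse 3, and 3 of them (*Dll4*, *Nrarp* and *Rbpj*) were lower without overlap, a share near the 17.8% of all genes. The medians were -0.02 for 11 BMP and TGF-beta genes, 0.32 for 6 flow response genes (among them *Klf2*, with 442 and 339 against 134 and 336 CPM), 0.05 for 11 junction genes and -0.25 for 6 cycling genes. In the same order they were 0.20, 0.25, 0.10 and -0.28 without mouse 3. The remaining lists were also described by their medians. They were 0.12 for 5 genes of caveolae and fenestrae, -0.35 for 7 of transport and lipid handling, 0.31 for 5 of chemokine and apelin signalling and -0.36 for 11 immediate early and stress genes, and without mouse 3 they were 0.12, -0.12, -0.02 and -0.12. Without the 4 clusters that held markers of other types they were 0.06, -0.83 (6 genes), -0.70 and -0.63 (9 genes). Among vessel types the medians were 0.15 for 8 glomerular, 0.26 for 6 venous, 0.02 for 5 peritubular and -0.42 for 5 lymphatic genes. Without mouse 3 they were -0.17, 0.42, 0.36 and 0.17, the last over 3 genes. Without the 4 clusters that held markers of other types they were -1.46 (6 genes), 0.71, 0.03 and -0.60 (1 gene). Of the 2 clusters matched best by the glomerular list, this choice left out cluster 3, with 10 of 75 cells from mouse 3. It kept cluster 7, with 35 of 37 cells from mouse 3. All medians without these 4 clusters thus rest on different mixes of clusters in mouse 3 and in the other mice. Of the descending vasa recta list, 2 genes were tested (median 1.25, or 1.13 without mouse 3), both higher without overlap (beside 17.5% of all genes). In podocyte cells, which secrete VEGF-A, *Vegfa* had 239 and 152 CPM in mice 1 and 2, 562 in mouse 3 and 228 in mouse 4, so that mouse 3 was again the highest. This was not particular to podocytes. In mice 1 to 4 *Vegfa* had 56.1, 58.5, 179 and 55.9 CPM in mural cells and 50.8, 86.5, 170 and 71.5 CPM in nephron progenitors.

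Without mouse 3, 118 of 11721 genes (1.01%) passed the adjusted test, 57 (0.486%) higher and 61 (0.52%) lower. This fit has mouse 4 as the only control and assumes that it varies as the *Trim28*Δ/Δ mice do. Its genes were chosen for separating mice 1 and 2 from mouse 4, so whether they overlapped over all 4 mice depends on mouse 3 alone. *Fbln5* (log2 1.44 ± 0.19), *Wdfy1* (1.40 ± 0.25), *Igf1* (0.79 ± 0.14), *Rsad2* (0.52 ± 0.10), *Isg15* (0.61 ± 0.12), *Tek* (0.68 ± 0.15), *Cldn5* (0.48 ± 0.10) and *Sox17* (0.53 ± 0.13) were higher by edgeR's adjusted p. *Col4a1* (-0.41 ± 0.07), *Col4a2* (-0.44 ± 0.09) and *Igfbp3* (-0.59 ± 0.10) were lower, beside *Tpm2* and proximal tubule genes such as *Slc34a1*. Markers of other cell types moved both ways in this fit, with medians of 1.96 for 5 immune and -1.02 for 6 proximal tubule markers. Within venous-like cells, which *Igf1* and *Rsad2* lead, *Igf1* overlapped between genotypes with 550.2 and 355 CPM in mice 1 and 2, 154 in the 6 cells of mouse 3 and 386 in mouse 4, while *Rsad2* had 882 and 921 against 755 and 771 CPM. *Clec14a* passed as well (1.12 ± 0.15), but its level in mouse 3 (164 CPM) was close to that in mice 1 and 2 (165 and 166 CPM) and only mouse 4 was low (76.0 CPM). Leaving out mouse 4 instead left mouse 3, which stood apart, as the only control, and leaving out mouse 1 or mouse 2 left 1 *Trim28*Δ/Δ mouse.

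*Trim28* itself was not detectably changed in endothelial cells. Both *Trim28*Δ/Δ mice (85.6 and 84.9 CPM) were close to both controls (87.7 and 99.0 CPM), and the log2 fold change was -0.13 ± 0.16 (edgeR adjusted p = 0.912). The sequenced 3′ ends lie outside the floxed segment, so these counts do not read the deletion itself. In podocytes, which descend from *Six2*-expressing progenitors, *Trim28* had 33.8 and 27.5 CPM against 111 and 122 (log2 -1.93 ± 0.22). Nephron progenitors had 35.4 and 56.6 against 112 and 160 CPM, and mural cells, which are of the stromal lineage, had 90.4 and 74.0 against 106 and 131 CPM.

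The change of *Trim28* in endothelial cells was compared with each of these 3 classes by an interaction term in edgeR with the mouse as a block. It differed from the change in podocytes by 1.80 ± 0.23 (log2, adjusted p = 0.0173), a comparison in which 8 genes (0.0654%) were called. Without mouse 1 or mouse 2 the adjusted p was 0.0682 and 0.0938, with differences of 1.96 and 1.68. The difference from nephron progenitors was 1.46 ± 0.32 (adjusted p = 0.384, 0.00808% of genes called), and that from mural cells was 0.38 ± 0.23 (adjusted p = 1, 0.00831% of genes called).

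**Figure D5:**
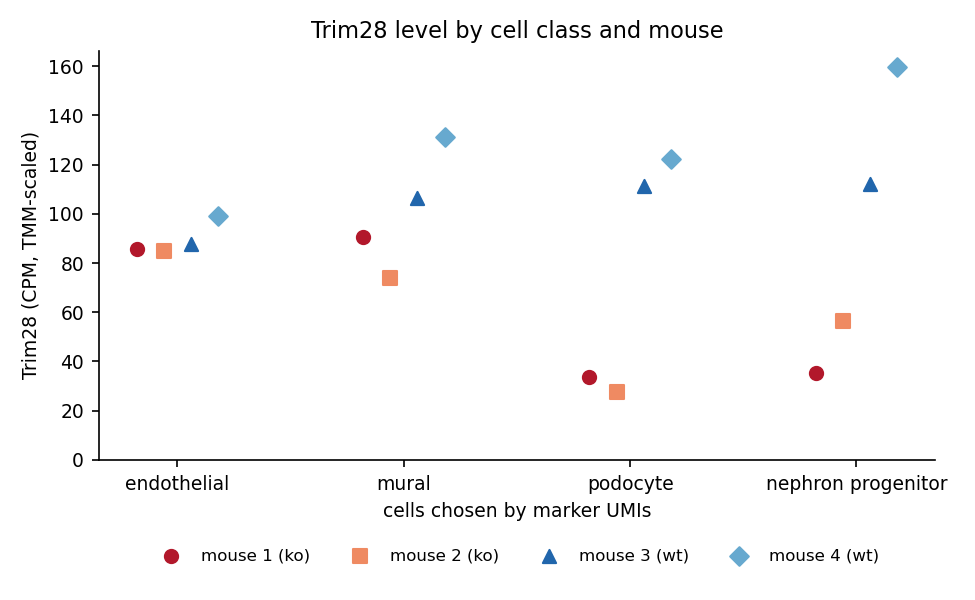
*Trim28* level (TMM-scaled CPM) in endothelial, mural, podocyte and nephron progenitor cells. Each point is 1 mouse. The 4 mice lie between 84.9 and 99.0 CPM in endothelial cells, whereas both *Trim28*Δ/Δ mice lie far below both controls in podocytes and nephron progenitors.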

How the data were processed

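The authors processed reads with Cell Ranger (6.0.0 by the processing notes, 4 by the matrix header) and deposited UMI counts without normalization or selection of cells. The build of these counts is not stated beyond GRCm38/mm10 in the notes, and positions are from GENCODE M21. Of 12 tags, 8 are not in the authors' list of mice: 4 served only to judge the leading tag, and their cells were not used. The 6 bulk samples were not analysed here.

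Barcodes with at least 6890 UMIs (10-fold below the 99th percentile for 24000 expected cells), 200 or more genes and no more than 10% of UMIs from mitochondrial genes were assigned to a mouse when the top tag of CMO301 to CMO308 had at least 50 counts and 80% of their sum. No doublet caller was run beyond the tags. Mural, podocyte and nephron progenitor cells had at least 6 UMIs of 5 markers each and fewer than 6 endothelial UMIs.

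Endothelial cells were clustered with scanpy 1.11.5 (2000 variable genes, 20 principal components, 15 neighbours, Leiden resolution 0.5). A cluster was named from a list when its markers had a mean log2 ratio to the other clusters of at least 0.5 (10 CPM added), 3 or more were 1.5-fold higher and found in 10% of cells or more, and at least 1 was among the 10 leading genes, where none of the other lists had more. Lists, members and thresholds were chosen with earlier results of these data known.

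Counts were summed per mouse, filtered by filterByExpr, scaled by TMM and tested with edgeR 4.0.16 (quasi-likelihood, 2 against 2, Benjamini-Hochberg). SEs are the absolute log2 fold change over the square root of F. DESeq2 1.42.0 was an alternative. On simulated counts the fit recovered 39.5% of 2-fold and 93.5% of 4-fold changes among 200 changed genes. These counts had the same dispersion for all genes and no mouse that stood apart, unlike the data. The rates therefore do not tell how large a change the real comparison could miss. Shares were compared by exact permutation tests (scipy 1.17.1), and binomial intervals cover counting error only. The genes named are the markers, *Trim28*, members of the lists, the 20 genes of highest endothelial ratio with at least 50 CPM, and the 10 higher and 10 lower genes of smallest p that did not overlap and had at least 20 CPM. *Hilpda*, *Igf1*, *Rsad2* and other leading genes of clusters or of the fit without mouse 3 were named after their values were seen.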

Additional observations from a re-analysis of the deposited data

Results flagged for a closer look

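The change of *Trim28* differed between endothelial cells and podocytes by 1.80 on the log2 scale, in an interaction test with the mouse as a block (edgeR adjusted p = 0.0173). Groups of 2 mice are too small for a test of outlying samples.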

How the results depend on the processing

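No paired analysis was possible because the mice carry the numbers 1 to 4 with none shared between genotypes. The share of endothelial cells kept its direction under all alternatives, and its difference ranged from 3.38 to 8.64 percentage points when 1 mouse was left out, the lowest without mouse 1. Counting markers after thinning each cell to 6890 UMIs (chosen after seeing the data) gave 5.74 points. The subgroup differences, as shares of the endothelial cells, also kept their direction. Leaving out 1 mouse gave 8.84 (mouse 3) to 37.0 points (mouse 4) for venous-like, 5.49 (mouse 3) to 15.8 for arterial-like and -7.58 (mouse 2) to -2.17 (mouse 1) for cycling-like cells, with -2.52 without mouse 4. At a resolution of 1.0 the arterial-like difference was 1.97 points, as only 8 cells were named so, and no cycling-like cluster was named with 10 principal components.

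The count of called genes was 0 under the other choices of cells, including the 2 chosen after seeing the data, which left out clusters with markers of other types or mostly of 1 mouse. It was 17 with DESeq2 and 316 of 18769 without the filter, of which 290 had also been tested with it, and 10 to 1643 when 1 mouse was left out, with 10 without mouse 1, 18 without mouse 2, 118 without mouse 3 and 1643 without mouse 4. Each of these fits has 1 lone mouse, assumed to vary like the other genotype. The cause was not tested. *Trim28* reversed to 0.0398 when the top tag had to hold 90% and to 0.0274 without clusters of other types, with -0.21 to -0.04 when 1 mouse was left out. Its difference was 1.68 to 1.96 from podocytes (past the threshold only with both *Trim28*Δ/Δ mice), 0.27 to 0.55 from mural cells and 1.17 to 1.88 from nephron progenitors. The number of mice limits every comparison, and the 5 to 6 cells of mouse 3 in the arterial-like and venous-like clusters limit values there.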
